A study of Homo sapiens with 12 samples.

Results

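Cohesin and condensin are the ring-shaped protein complexes that tie and fold chromosomes, and 10 of their subunit genes were followed across all 12 libraries of the series. The members were taken by gene name: the 5 cohesin genes SMC1A, SMC3, RAD21, STAG1 and STAG2, and the 5 condensin genes SMC2, SMC4, NCAPD2, NCAPG and NCAPH, 10 of the 57134 genes in the deposited table. The libraries hold total RNA of HCT116, an epithelial human colon carcinoma line, made with MATQ-seq, which also reads RNA without a poly(A) tail. DASHed libraries went through scDASH, in which Cas9 cuts library molecules that derive from ribosomal RNA (rRNA), and untreated libraries did not. There were 2 DASHed and 2 untreated mini-bulk libraries, and 4 DASHed and 4 untreated libraries of single cells sorted by FACS; all groups share the cell line and the library protocol.

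In cohesin, SMC1A and SMC3 are the paired arms of the ring, RAD21 is the kleisin that closes it, and STAG1 or STAG2 is bound to RAD21. The ring holds sister chromatids together until anaphase and extrudes loops of interphase chromatin. In condensin I, SMC2 and SMC4 are the arms, NCAPH is the kleisin, and NCAPD2 and NCAPG are its HEAT-repeat subunits; this complex compacts chromosomes in mitosis.

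Coding sequence of 6 members is shown because base composition moved with their difference between DASHed and untreated libraries. Each run is 60 bases of 1 coding exon, 5′ to 3′ on the coding strand, chosen for a GC content closest to that of the member's whole coding sequence, with G and C in capitals. Sequences and positions are those of GENCODE v29 on GRCh38. The runs from SMC1A (chrX:53415099-53415158, minus strand, exon 2 of 25) and NCAPD2 (chr12:6510631-6510690, plus strand, exon 5 of 32) hold 30 and 31 G or C bases. Those from SMC3 (chr10:110568938-110568997, plus strand, exon 2 of 29), STAG1 (chr3:136568799-136568858, minus strand, exon 5 of 34), SMC2 (chr9:104095388-104095447, plus strand, exon 2 of 25) and SMC4 (chr3:160401917-160401976, plus strand, exon 3 of 24) hold 23, 25, 23 and 22.
SMC1A: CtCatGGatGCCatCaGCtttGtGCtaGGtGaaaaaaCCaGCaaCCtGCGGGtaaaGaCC
NCAPD2: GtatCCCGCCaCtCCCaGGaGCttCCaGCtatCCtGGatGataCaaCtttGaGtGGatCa
SMC3: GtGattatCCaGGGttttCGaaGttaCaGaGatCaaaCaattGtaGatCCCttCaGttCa
STAG1: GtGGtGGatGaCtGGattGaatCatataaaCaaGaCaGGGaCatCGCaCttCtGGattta
SMC2: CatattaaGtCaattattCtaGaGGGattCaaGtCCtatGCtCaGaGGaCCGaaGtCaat
SMC4: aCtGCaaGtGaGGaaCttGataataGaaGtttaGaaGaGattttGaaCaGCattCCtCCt

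Levels are given as CPM, a gene's counts scaled to a library total of 1000000 counts outside rRNA and 4 genes with rRNA-like reads. The unscaled totals were lower in DASHed libraries of either input: 519157 to 623189 in DASHed and 854974 to 1035731 in untreated mini-bulk libraries, and 714573 to 1070836 in DASHed and 1077290 to 1505387 in untreated single-cell libraries. A floor of 3 counts corresponded to 1.99 to 5.78 CPM. Of 7 epithelial markers 4 to 6 had counts in every library, TSPAN8 being at 0 throughout, 5 blood markers summed to at most 6.90 CPM, and 5 fibroblast and endothelial markers to at most 61.2 CPM. Since no label names separate cultures, a p-value here reflects spread that may be technical. Single-cell groups were treated as 1 sample each and not tested, because a library is 1 cell. Gene by gene, same-numbered DASHed and untreated single-cell libraries departed from their group means together, with correlations of 0.926 to 0.934 over 7338 genes, and they are not treated as independent. The labels do not say whether such a pair was made from 1 cell, so the 8 libraries may stand for fewer than 8 cells. In mini-bulk libraries, a smaller share of cells expressing a gene and less of its RNA per cell cannot be told apart.

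In mini-bulk input, 7 of the 10 members fell in DASHed libraries and none rose. In cohesin these were SMC3, RAD21, STAG1 and STAG2, whereas SMC1A did not pass the test. In condensin they were SMC2, SMC4 and NCAPG, whereas NCAPD2 and NCAPH did not pass. Of 10083 genes tested in edgeR's quasi-likelihood test, 19.8% were lower and 9.90% higher at an adjusted p under 0.05. The members' median log2 fold change was -1.96, against 0.03 over all genes tested. All 10 members passed the filter on low counts. SMC2, with 0 and 2 DASHed counts, passed through its untreated counts, so it could only have been called lower. For 8 members both DASHed values lay below both untreated values, an ordering seen in 34.3% of genes. For SMC1A and NCAPD2 both lay above, an ordering that was not counted over all genes. Scaling to total counts with rRNA included moved the median of all genes to 2.04. On that scale 6718 of the 10083 genes were called higher and 138 lower. SMC2 alone of the members was then called lower, SMC1A, SMC4, NCAPD2 and NCAPH were called higher, and NCAPG turned to 0.18.

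**Figure D1:**
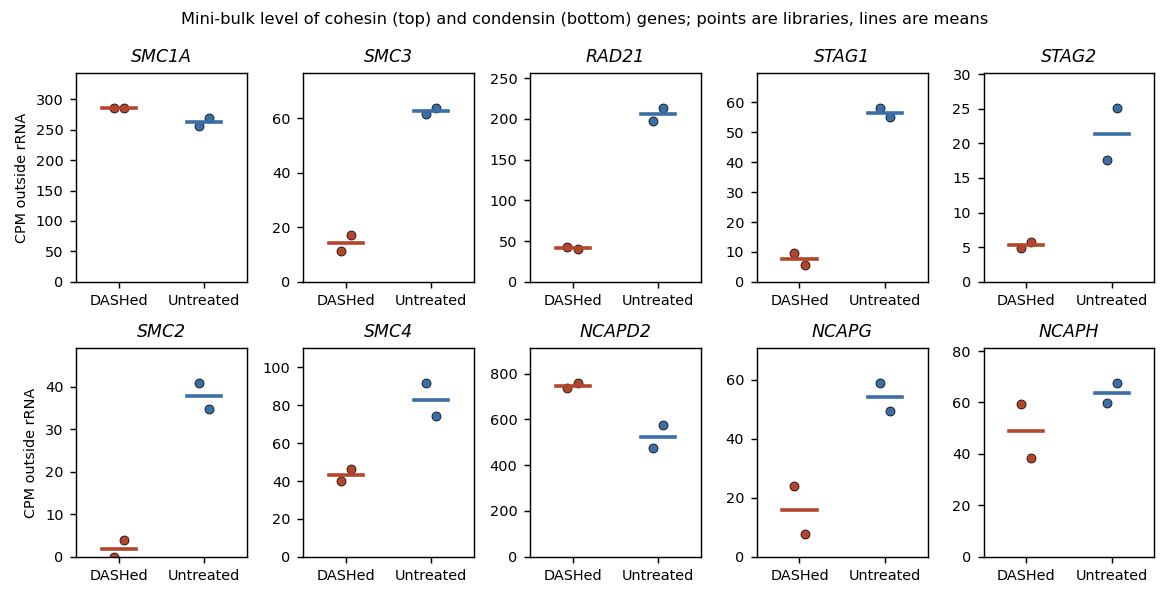
Level of each member in CPM outside rRNA in the 2 DASHed and 2 untreated mini-bulk libraries, 1 point per library with the group mean as a line and an axis from 0 in each panel. SMC1A stands at 285 to 286 CPM in DASHed and 255 to 269 in untreated libraries, while RAD21 stands at 40.5 to 43.3 in DASHed and 198 to 213 in untreated libraries.

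Among the arms of the cohesin ring, SMC1A (chromosome X, 53374149 to 53422728, minus strand) had 286 and 285 CPM in DASHed mini-bulk libraries, against 255 and 269 in untreated ones. The groups did not overlap, and both DASHed values were slightly above the untreated ones. Its log2 fold change was 0.01 ± 0.17 (SE, n = 2 each, edgeR adjusted p = 0.98). The direction turned to -0.17 when either untreated library was left out. SMC3, its partner (chromosome 10, 110567691 to 110604636, plus strand), had 11.2 and 17.3 CPM in DASHed libraries, against 61.6 and 63.7 in untreated ones. Both DASHed values lay far below the untreated ones, and the log2 fold change was -2.26 ± 0.44 (edgeR adjusted p = 0.00647). SMC3 shares 10.9% of its 31-base words with other genes, the largest part with AC019097.1, which held 0 DASHed and 1 untreated mini-bulk count.

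Per kilobase of transcript, the level of SMC1A was 10.7 and 6.91 times that of SMC3 in the DASHed mini-bulk libraries, against 1.74 and 1.78 times in the untreated ones. With the median length of each gene's annotated transcripts, the proportion was 71.2 and 46.0 in DASHed libraries, against 11.6 and 11.8 in untreated ones. Its size thus rested on the length used, while it was higher in both DASHed libraries with either length. The share of all cohesin counts that came from SMC1A was 80.5% and 80.4% in DASHed libraries, against 43.2% and 43.0% in untreated ones. Summed over the 5 genes, cohesin stood at 355 and 354 CPM in DASHed libraries and at 590 and 627 in untreated ones.

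The kleisin gene RAD21 (chromosome 8, 116845935 to 116874866, minus strand) had 43.3 and 40.5 CPM in DASHed mini-bulk libraries, against 198 and 213 in untreated ones. The spread within each group was small beside the gap between them. Its log2 fold change of -2.40 ± 0.25 had the smallest adjusted p of the members (edgeR, 0.000354). RAD21 shares 15.5% of its 31-base words with other genes, the largest part with Z95327.1, at 1 count in each group. It shares 14.2% of its exonic bases with RAD21-AS1 and UTP23 on the other strand. RAD21-AS1 held 0 DASHed and 24 untreated mini-bulk counts, and UTP23 held 33 DASHed and 47 untreated counts. How strand was handled is not given in the sources used here, so reads of genes on opposite strands cannot be told apart.

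STAG1 and STAG2 are alternative partners of RAD21. STAG1 (chromosome 3, 136336233 to 136752403, minus strand) had 9.63 and 5.78 CPM in DASHed mini-bulk libraries, against 58.1 and 55.0 in untreated ones. Its log2 fold change was -2.94 ± 0.50 (edgeR adjusted p = 0.0037). STAG1 shares 27.1% of its 31-base words with other genes, the largest part with PCCB, whose exons lie opposite. PCCB was at 21 DASHed and 22 untreated counts. STAG2 (chromosome X, 123960212 to 124422664, plus strand) had 4.81 and 5.78 CPM in DASHed libraries, against 17.5 and 25.1 in untreated ones. DASHed values rested on 3 counts in each library, at the floor. The log2 fold change was -2.10 ± 0.67 (edgeR adjusted p = 0.0422). Per kilobase, STAG1 was measured at 1.72 and 0.862 times STAG2 in DASHed libraries and at 2.86 and 1.89 times in untreated ones. With the median length of each gene's annotated transcripts, an alternative chosen after seeing the data, STAG1 was below STAG2 in every mini-bulk library, at 0.472 and 0.236 times in DASHed and 0.783 and 0.518 times in untreated ones. Which of the alternative partners was higher thus rested on the length used.

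Of the condensin arms, SMC2 (chromosome 9, 104094260 to 104141417, plus strand) was at 0 and 3.85 CPM in DASHed mini-bulk libraries, against 40.9 and 34.8 in untreated ones. These are 2 DASHed counts against 71 untreated counts, a ratio of 0.0466 with an exact 95% interval of 0.00554 to 0.175 that covers counting error only. The fitted log2 fold change of -4.40 ± 0.87 (edgeR adjusted p = 0.00661) depends on the prior count. SMC4, the other arm (chromosome 3, 160399274 to 160434962, plus strand), had 40.1 and 46.2 CPM in DASHed libraries, against 91.8 and 74.2 in untreated ones. Its log2 fold change was -1.06 ± 0.33 (edgeR adjusted p = 0.0391), and the adjusted p was 0.0512 when libraries were scaled to counts outside rRNA. SMC4 shares 34.8% of its 31-base words with other genes, the largest part with TRIM59, which lies opposite together with IFT80. TRIM59 had 20 DASHed and 82 untreated counts. Per kilobase, SMC4 was at 13.1 times SMC2 in the DASHed library with SMC2 counts, against 2.46 and 2.34 times in the untreated ones. With median transcript lengths it was at 76.7 times in that DASHed library, against 14.3 and 13.7 times in the untreated ones.

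NCAPD2, the HEAT-repeat subunit with the highest level of all members (chromosome 12, 6493356 to 6531955, plus strand), had 737 and 759 CPM in DASHed mini-bulk libraries, against 475 and 576 in untreated ones. It was the member with the largest value on the positive side, a log2 fold change of 0.39 ± 0.16, without passing the test (edgeR adjusted p = 0.0963). Scaled to counts outside rRNA, under which the median of all genes was 0.11, its value was 0.48 and its adjusted p 0.0488. NCAPD2 shares 13.2% of its 31-base words with other genes, the largest part with MRPL51, which had 70 DASHed and 112 untreated counts.

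NCAPG, the other HEAT-repeat subunit (chromosome 4, 17810902 to 17844862, plus strand), had 24.1 and 7.70 CPM in DASHed libraries, against 58.9 and 49.6 in untreated ones. Its DASHed libraries differed from each other by 3.12 times, the widest such gap among members with counts in both. The log2 fold change was -1.83 ± 0.53 (edgeR adjusted p = 0.0294). NCAPG shares 39.5% of its 31-base words with other genes, the largest part with LCORL. LCORL lies opposite and had 9 DASHed and 57 untreated counts. NCAPH, the condensin kleisin (chromosome 2, 96335787 to 96373845, plus strand), had 59.4 and 38.5 CPM in DASHed libraries, against 59.7 and 67.6 in untreated ones. The upper DASHed value was close to the lower untreated one, and the log2 fold change of -0.48 ± 0.36 did not pass (edgeR adjusted p = 0.322).

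Summed over its 5 genes, condensin stood at 860 and 856 CPM in DASHed mini-bulk libraries and at 726 and 802 in untreated ones. NCAPD2 alone gave 85.6% and 88.7% of these counts in DASHed libraries, against 65.4% and 71.8% in untreated ones. Its highest gene thus made up more of the condensin counts in both DASHed libraries than in either untreated one.

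With a library left out, 1 group holds 1 library, which is assumed to vary like the 2 of the other group. SMC3 and RAD21 passed in all 4 such fits, with log2 fold changes of -2.47 to -1.82 for SMC3 and -2.60 to -2.24 for RAD21. STAG1 was tested in 3 of these fits, at log2 fold changes of -3.23 to -2.54. SMC2 was tested only in the 2 fits without a DASHed library, at -7.99 to -3.22. At -7.99 the remaining DASHed library held 0 SMC2 counts. SMC2 was kept in these fits by its untreated counts, so they could not have called it higher. STAG2 lost its call in both fits that tested it, without DASHed library 1 (5 members called) and without DASHed library 2 (4 called), at log2 fold changes of -2.12 to -1.84. SMC4 kept its call without untreated library 2 (4 members called) and lost it in the other fits, at -1.42 to -0.82 over the 4. NCAPG lost its call without DASHed library 2 and without untreated library 1 (3 called), at -2.75 to -1.15 over the 4. Fewer libraries entered each of these fits, so a lost call at a like fold change does not show a weaker difference.

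GC content of the transcript moved with the fold change. Over 10053 genes the Spearman correlation across genes, which are not independent replicates, was 0.784. Among the 10 members it was 0.54. SMC1A, NCAPH and NCAPD2, the 3 members that did not pass, have transcripts of 47.1%, 47.8% and 52.5% GC. The 7 that fell have 37.3% to 40.7%. SMC1A and NCAPH also lie below the median of 50.9% over genes tested, so that median does not separate the 7. SMC4, with the lowest GC content of the members, had the smallest fall of the 7, at -1.06. The SMC1A and NCAPD2 runs above carry more capitals than those of SMC3, STAG1, SMC2 and SMC4. Each run was chosen to match the GC content of its coding sequence, so the runs illustrate this contrast and do not test it.

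**Figure D2:**
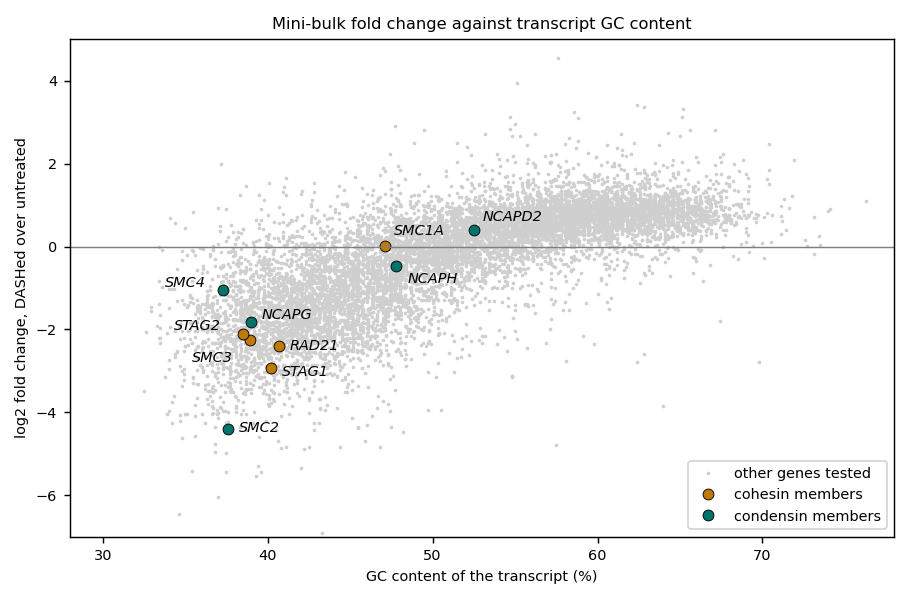
Log2 fold change of DASHed over untreated mini-bulk libraries against GC content of the transcript in percent, with all genes tested in grey and the members coloured by complex. SMC2 at 37.6% GC lies at -4.40 and NCAPD2 at 52.5% GC at 0.39, and log2 fold changes rise with GC content over all genes.

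With offsets corrected for GC content, 0 of the 10 members passed (4 at an unadjusted p under 0.05), beside 4.64% of all genes called in either direction. The members' median became -0.34, against 0.05 over all genes. RAD21 stood at -0.92 ± 0.26 (edgeR adjusted p = 0.0776), STAG1 at -1.43 ± 0.52 (0.176) and SMC2 at -2.73 ± 0.96 (0.16). SMC3 stood at -0.62 ± 0.47 (edgeR adjusted p = 0.581). On the other side SMC1A had the nearest value to a call, 0.66 ± 0.18 (edgeR adjusted p = 0.0676), and SMC4 changed sign to 0.71 ± 0.34 (0.324). NCAPD2 was at 0.27 ± 0.17 (edgeR adjusted p = 0.464). The correlation of GC content with the members' values was 0.22 after this correction.

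**Figure D3:**
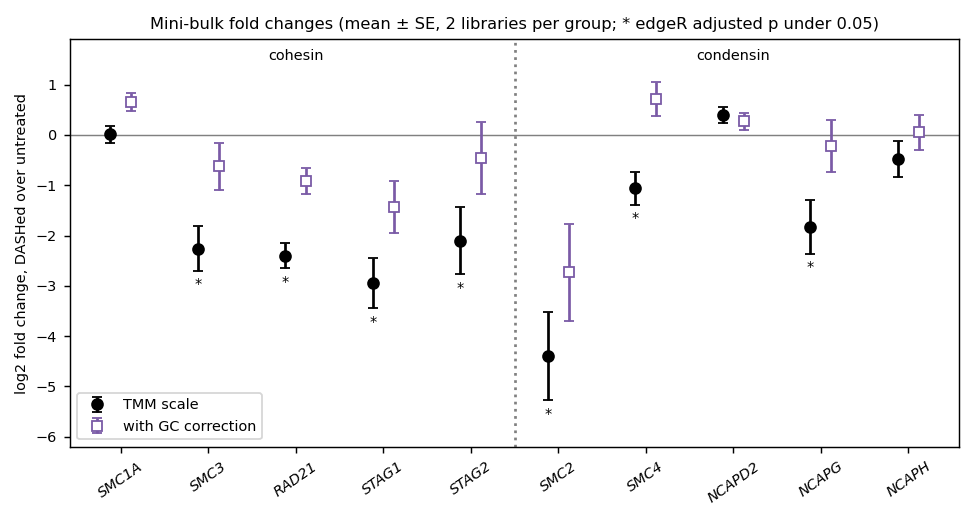
Log2 fold change of each member, DASHed over untreated mini-bulk libraries with SE (2 libraries per group), on the TMM scale (filled circles) and with GC correction (open squares); asterisks mark edgeR adjusted p under 0.05. The 7 called members lie between -4.40 and -1.06 on the TMM scale, and no member is called with the correction.

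Compared per kilobase, the order of the members differed between treatments. In DASHed mini-bulk libraries NCAPD2 led with 135 ± 2.91 CPM per kilobase, followed by SMC1A at 29.2 ± 0.0398, NCAPH at 17.7 ± 5.34, RAD21 at 11.2 ± 0.542 and SMC4 at 7.89 ± 0.790 (SD, n = 2). SMC3 at 3.47 and NCAPG at 3.41 overlapped, as did STAG1 at 1.27 and STAG2 at 1.02, and SMC2 was last at 0.321. In untreated libraries NCAPD2 led with 94.7 ± 12.8, followed by RAD21 at 54.8 ± 2.96, SMC1A at 26.8 ± 1.02 and NCAPH at 23.0 ± 2.03 (SD, n = 2). SMC3 at 15.2 and SMC4 at 15.2 overlapped, and NCAPG at 11.6, STAG1 at 9.35, SMC2 at 6.32 and STAG2 at 4.09 came after them without overlap. RAD21 thus ranked 4 in DASHed and 2 in untreated libraries. The order depended on the length used. With the median length of all annotated transcripts, NCAPD2 and SMC1A ranked first and second in both groups, RAD21 ranked 4 in DASHed and 3 in untreated libraries, SMC4 ranked 3 in DASHed and 4 in untreated libraries, and STAG2 stood above STAG1 in both.

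In single cells the same 2 complexes were compared as summed counts over 4 libraries a group, without a test. Cohesin was at 0.607 times its untreated level in DASHed libraries (exact 95% interval 0.562 to 0.654), and condensin at 1.02 times (0.974 to 1.07). Scaled to total counts with rRNA included, the ratio was 1.82 for cohesin and 3.06 for condensin. That scale raised the ratio of every gene by the same factor, SMC1A from 0.999 to 2.99. Relative to the median ratio of all genes, cohesin was at 0.686 and condensin at 1.15. Of the members, 6 were more than 2-fold lower in DASHed libraries, beside 31.5% of 13459 genes, and none was more than 2-fold higher, beside 6.44%. The members' median ratio was 0.347, against 0.884 over all genes. In 5 members, SMC3, RAD21, STAG1, SMC2 and NCAPG, the DASHed library was below the untreated one of the same number in all 4 pairs, an ordering found in 21.6% of genes.

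SMC1A had 263, 120, 180 and 234 CPM in DASHed libraries 1 to 4, against 298, 117, 193 and 233 in the untreated libraries of the same numbers. The library numbered 2 was low in both treatments, and the summed ratio was 0.999 (0.907 to 1.10). SMC3 had 1.22, 9.80, 12.1 and 9.86 CPM in DASHed libraries, against 41.8, 49.2, 29.2 and 39.0 in untreated ones. The groups did not overlap, and the summed ratio was 0.214 (0.141 to 0.313). RAD21 had 34.3, 30.8, 26.1 and 77.9 CPM in DASHed libraries, against 101, 88.3, 136 and 203 in untreated ones. These groups did not overlap either, number 4 was highest in both, and the ratio was 0.332 (0.277 to 0.396). How many of all genes show such a gap between the groups was not counted.

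STAG1 varied most among the cohesin members. It had 0, 37.8, 1.87 and 9.86 CPM in DASHed libraries, against 16.1, 145, 5.90 and 46.3 in untreated ones. Number 2 was highest in both treatments, with 27 DASHed and 219 untreated counts, and the summed ratio was 0.182 (0.127 to 0.255). The ratio was 0.0699 without DASHed library 2 and 0.471 without untreated library 2. Such leave-outs, here and below, keep the same-numbered partner and so compare unlike sets of numbers. As a mean over same-numbered pairs on the log2 scale, with 1 CPM added to each value, the ratio was 0.196. STAG2 was near the floor, with 2.45, 0, 2.80 and 1.97 CPM in DASHed libraries, against 21.3, 0, 11.0 and 1.62 in untreated ones. Number 2, the highest for STAG1, held no STAG2 count in either treatment. The STAG2 ratio was 0.252 (0.0952 to 0.570) from 7 DASHed and 39 untreated counts, and 0.485 without untreated library 1.

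SMC2 came mostly from number 1, with 13.5, 0, 0.934 and 0 CPM in DASHed libraries, against 75.2, 10.6, 17.3 and 1.62 in untreated ones. Its ratio was 0.139 (0.0701 to 0.253), from 12 DASHed and 121 untreated counts. It was 0.015 without DASHed library 1, 0.332 without untreated library 1 and 0.16 as a mean over same-numbered pairs. SMC4 had 76.6, 26.6, 135 and 87.8 CPM in DASHed libraries, against 116, 16.6, 124 and 169 in untreated ones. Number 2 was lowest in both treatments, the DASHed value was lower in 2 of the 4 pairs, and the ratio was 0.862 (0.747 to 0.994). With a library left out it lay on either side of 1, at 0.637 without untreated library 2 and 1.09 without untreated library 4. As a mean over same-numbered pairs it was 0.878.

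NCAPD2 was lowest in number 1, with 195, 600, 657 and 935 CPM in DASHed libraries, against 192, 455, 569 and 777 in untreated ones. DASHed values were higher in all 4 pairs, though nearly equal in number 1, with a summed ratio of 1.23 (1.16 to 1.30). How many of all genes were higher in every pair was not counted. The ratio was 0.982 without DASHed library 4, whose untreated partner stayed in, and 1.17 as a mean over same-numbered pairs. NCAPG had 64.9, 11.2, 17.7 and 20.7 CPM in DASHed libraries, against 115, 49.8, 53.5 and 102 in untreated ones. Number 1 was highest in both, and the ratio was 0.361 (0.287 to 0.451). It was 0.222 without DASHed library 1 and 0.315 as a mean over same-numbered pairs. NCAPH had 12.2, 161, 259 and 54.3 CPM in DASHed libraries, against 16.7, 197, 270 and 41.4 in untreated ones. Numbers 2 and 3 were high in both treatments, and the ratio was 0.907 (0.805 to 1.02). It was 0.508 without DASHed library 3, 1.32 without untreated library 3 and 0.935 as a mean over same-numbered pairs.

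**Figure D4:**
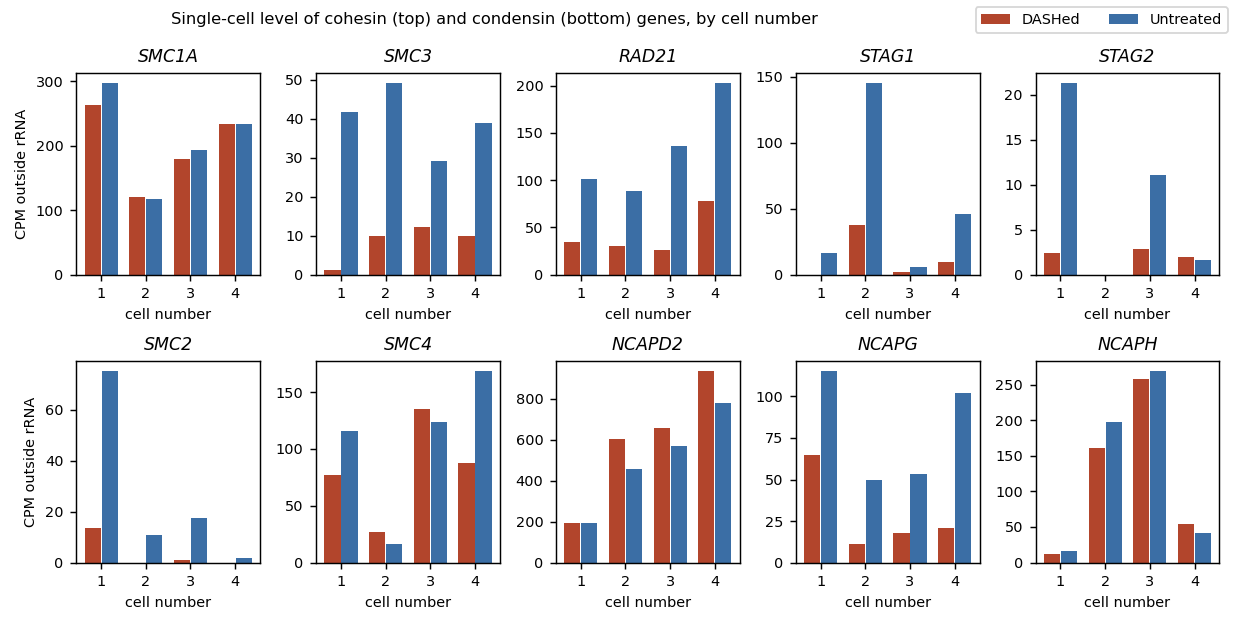
Level of each member in CPM outside rRNA in the DASHed (left bar) and untreated (right bar) single-cell libraries numbered 1 to 4, with an axis from 0 in each panel and 1 library per bar. The height varies by number in both treatments (NCAPH at 259 CPM DASHed and 270 CPM untreated in number 3, and at 12.2 CPM DASHed and 16.7 CPM untreated in number 1), and SMC3, RAD21, STAG1, SMC2 and NCAPG are lower in the DASHed bar of every number.

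The highest DASHed and the highest untreated library carried the same number for 7 of the 10 members, near the 78.2% found over all genes. Between untreated single-cell libraries, the highest value exceeded the lowest by 1.68 times for SMC3, 2.30 for RAD21, 2.32 for NCAPG and 2.55 for SMC1A. The gap was 4.05 times for NCAPD2, 10.2 for SMC4, 16.1 for NCAPH, 24.7 for STAG1 and 46.3 for SMC2. The lowest SMC2 value rested on 2 counts, below the floor. STAG2 ran between 0 and 21.3 CPM. In DASHed libraries the order differed, with 9.91 times for SMC3, whose lowest value rested on 1 count, and 5.09 times for SMC4. Summed genes of G2 and M phase stood at 713 CPM in DASHed and 881 CPM in untreated libraries numbered 1, the lowest of both groups; numbers 2 to 4 had 1316 to 1462 CPM in DASHed and 2097 to 2676 in untreated libraries. NCAPD2 and NCAPH were also lowest in number 1 and SMC2 and NCAPG highest. The part of cell cycle stage in these values was not tested.

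Ratios in single cells and in mini-bulk were ordered alike, with a Spearman correlation of 0.964 over the 10 members, given as a description; the genes and the depletion step are shared. GC content moved with the single-cell ratio too, at a Spearman correlation of 0.624 over the members and 0.693 over 13428 genes. Relative to the median ratio of the genes closest in GC content, a comparison chosen after seeing the data that adds 1 CPM to each sum, SMC3 was at 0.610, RAD21 at 0.837, STAG2 at 0.940 and NCAPG at 0.965. STAG1 was at 0.474 and SMC2, from 12 DASHed counts, at 0.494, while SMC4 was at 2.72 and SMC1A at 1.55. How many of all genes lie as far from their neighbours in GC content was not counted.

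Single-cell and mini-bulk input also differed in some members within a treatment. NCAPH stood at 126 CPM in summed DASHed single-cell libraries and 49.9 in DASHed mini-bulk libraries, a ratio of 2.53 (1.92 to 3.40), and at 139 CPM in untreated single-cell and 64.0 in untreated mini-bulk libraries, a ratio of 2.18 (1.79 to 2.66). SMC1A stood at 202 CPM in single-cell and 285 in mini-bulk DASHed libraries (ratio 0.708, 0.621 to 0.810), and at 202 CPM in single-cell and 263 in mini-bulk untreated libraries (0.770, 0.691 to 0.859). For NCAPH both mini-bulk values lay within the range of single cells in either treatment, and counting error is all that these intervals cover.

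Cell cycle genes, given as sums, differed between treatments in mini-bulk input, with G2 and M genes lower and S phase genes higher in DASHed libraries. Summed over 12 genes of G2 and M phase, DASHed libraries had 1037 and 844 CPM, against 1632 and 1495 in untreated ones, and 7 of the 11 tested fell while 1 rose, beside 19.8% of all genes called lower and 9.90% called higher. The 12 S phase genes summed to 2536 and 2627 CPM in DASHed libraries and to 1811 and 1776 in untreated ones, and 1 of the 11 tested fell while 3 rose. With GC correction none of the G2 and M genes passed and 1 of the S phase genes was higher, beside 4.64% of all genes called. Their part in the members' values was not tested.

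Genes that act with the complexes gave a mixed picture in mini-bulk libraries, read against the 19.8% and 9.90% of genes called lower and higher. Of 10 genes that load, release or acetylate cohesin, 7 fell and 2 rose. NIPBL, the cohesin loader, had 6.42 and 13.5 CPM in DASHed libraries, against 85.4 and 107 in untreated ones, with a log2 fold change of -3.40 ± 0.46 (edgeR adjusted p = 0.00128). MAU2, its partner in loading, went the other way, with 204 and 231 CPM in DASHed libraries, against 112 and 134 in untreated ones (0.70 ± 0.22, edgeR adjusted p = 0.0383). CDCA5, known as sororin, which protects cohesin from release, rose by 0.97 on the log2 scale. The release factors WAPL (-1.90), PDS5A (-2.32) and PDS5B (-1.91) fell, as did the acetyltransferase ESCO2 (-2.35), the deacetylase HDAC8 (-2.32) and CTCF, which stops cohesin at loop anchors (-0.63). ESCO1 did not pass. NIPBL transcripts have 39.5% GC, and those of MAU2 and CDCA5 57.3% and 60.1%.

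Of 7 tested genes that protect or cut cohesin at anaphase, ESPL1, which encodes separase, rose by 0.88 and the kinase gene AURKB by 0.70 on the log2 scale. SGO2, a shugoshin that guards centromeric cohesin, fell, with 2 DASHed counts against 56 untreated counts (ratio 0.0591, 0.00699 to 0.224). In the second condensin complex, 1 of 3 subunit genes fell, NCAPG2 at -1.36. Among 6 tested genes of the related SMC5-SMC6 complex, SMC5 fell at -1.52. Of 6 genes for other parts of chromosome structure, 4 fell: TOP2A (-3.33) and TOP2B (-3.05), the type II topoisomerases, SMCHD1 (-2.86), a non-canonical SMC protein, and MKI67 (-0.93), a surface protein of mitotic chromosomes. Of the meiotic cohesin genes, SMC1B and RAD21L1 were at 0 in mini-bulk libraries, STAG3 was not tested, and REC8 did not pass. With GC correction, HDAC8 (-2.06, edgeR adjusted p = 0.0402) and TOP2A (-1.71, 0.0177) were the 2 genes of these lists still called, beside 4.64% of all genes. HDAC8 shares 73.9% of its 31-base words with other genes, the largest part with AL133500.1. CTCF shares 13.0% of its exonic bases with a gene opposite.

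Over the 12 libraries and 7121 candidate genes, the summed cohesin level was most like that of THOC2 (Pearson r of log2 CPM plus 1, 0.977), MORF4L2 (0.962), ILF2 (0.961), HNRNPA3 (0.958) and TMEM209 (0.957). Condensin was most like NUP93 (0.975), ZDHHC5 (0.972), PXDN (0.961), AXIN2 (0.956) and HIP1R (0.954). The libraries share a cell line, a treatment step and, by number, much of their deviation.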

How the data were processed

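The values the authors deposited are estimated counts, unscaled, in 1 table of all 12 libraries. Per the submitters' processing notes, kallisto 0.46.2 was used. For the build, annotation and strand handling, nothing is given in the sources used here. Such estimates divide reads that match several transcripts among them. Members sharing at least 10% of their 31-base words or exonic bases with other genes are therefore uncertain (SMC3, RAD21, STAG1, SMC4, NCAPD2 and NCAPG).

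Gene names were matched to GENCODE v29 (57079 of 57134), which supplied positions, sequence, GC content and the length of the transcript with the longest coding sequence. Library totals were 837614 to 1087711 in DASHed and 5803180 to 6026584 in untreated mini-bulk libraries, and 1018874 to 1573651 in DASHed and 5545355 to 6008358 in untreated single-cell libraries. Totals outside rRNA set the precision.

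Estimated counts were rounded and mini-bulk libraries tested in edgeR 4.0.16 under R 4.3.3 (quasi-likelihood test, TMM factors, filterByExpr defaults). P-values were adjusted by Benjamini-Hochberg over all genes tested, with a threshold of 0.05. The SE given with a log2 fold change is its absolute value divided by the square root of the test's F statistic. It is derived from that test and is not a spread measured between libraries. The procedure was also run on simulated counts, and the outcome of that run is not given here. DESeq2 1.42.0, other scalings, no filter, a replicate block, GC-corrected offsets and each library left out were alternatives. Single-cell sums carry exact 95% intervals of the ratio, for genes with at least 20 counts. Intervals and floors cover counting error only, since reads are not independent molecules.

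All 10 members are named. Of the other lists, genes past the mini-bulk threshold are named, or the 2 with the highest counts where none passed (STAG3 and REC8 in the meiotic list), and the 5 genes most alike. Members and lists were chosen with earlier results of these data known. Same-numbered single-cell libraries correlated at 0.926 to 0.934 and differently numbered ones at -0.391 to -0.220, so the numbers were taken to pair them, from the data alone.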

Additional observations from a re-analysis of the deposited data

Results flagged for a closer look

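In DASHed single-cell libraries, 2 members had 1 library so far above the other 3 that its gap to the next, as a share of the group's whole range, exceeded Dixon's 95% critical value. RAD21 was at 77.9 CPM in number 4, with the others at 26.1 to 34.3 CPM; the untreated library of that number was also the highest of its group, at 203 CPM. SMC2 was at 13.5 CPM in number 1, with the others at 0 to 0.934 CPM, and untreated number 1 was again the highest, at 75.2 CPM. NCAPG (64.9 CPM in number 1, the others 11.2 to 20.7) and STAG1 (37.8 CPM in number 2, the others 0 to 9.86) stayed below that value. Of 20 groups of 4 libraries examined, 2 met this criterion, where chance flags about 1 in 20.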

How the results depend on the processing

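Genes called in mini-bulk numbered 2997, and 6856 with scaling to total counts, 1790 with DESeq2, 5403 with the replicate block, 468 with GC correction, 1712 with both, and 1417 to 3450 with a library left out. Scaling to total counts moved the median of all genes to 2.04 on the log2 scale. Members called numbered 7, and 4 with DESeq2 (SMC3, RAD21, STAG1 and SMC2), 0 with GC correction and 3 to 5 with a library left out, where 7 or 8 members were tested without an untreated library. The log2 fold change turned sign for SMC1A without either untreated library (-0.17 to 0.15 over the libraries left out), for SMC4 with total counts (0.97), GC correction (0.71) and the block with GC correction (0.70), for NCAPG with total counts (0.18), and for NCAPH with total counts (1.52), GC correction (0.05) and the block with GC correction (0.06). The causes were not tested. Replicate numbers of the 2 mini-bulk pairs were not taken as pairs (same-numbered deviations correlated at 0.49). With the replicate block the 7 members stayed lower and NCAPD2 rose at 0.40 (edgeR adjusted p = 0.000114). Of 10083 genes, 3044 were called lower and 2359 higher in that fit. With GC correction added, RAD21, STAG1 and SMC2 were lower and SMC1A and NCAPD2 higher, beside 859 genes lower and 853 higher. The single-cell ratio of cohesin was 1.82 with total counts and 0.686 relative to the median of all genes. With a library left out and its same-numbered partner kept, it was 0.548 to 0.648. The ratio of condensin was 3.06, 1.15 and 0.913 to 1.19 in the same order, and 0.947 as a mean over same-numbered pairs (replicate block). With total counts, which raised the ratio of every gene by the same factor, NCAPG turned to 1.08. SMC1A (2.99), SMC4 (2.58) and NCAPH (2.72) also passed above 1. Depth limits STAG2 and SMC2, at 6 and 2 DASHed mini-bulk counts.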
